A study of Mus musculus with 28 samples.

Results

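The measurements described here are the Cy3 channel of the 16 two-colour arrays of a series of 28 Agilent mouse expression arrays: 8 arrays loaded with 1X and 8 with 1.5X of amplified cDNA. Arrays were assigned to an input by their titles and to a mouse by the source name of the Cy3 channel. All RNA came from livers of male B6C3F1 mice, labelled as 42 days old, that were kept as formalin-fixed, paraffin-embedded blocks for 16 years. In the exposed group, 3 mice received 0.05% phenobarbital in the drinking water for about 4 weeks, and in the control group 3 mice received drinking water alone. The same 6 mice were measured at both inputs, with 4 arrays of each exposure per input, and the mouse was the replicate (n = 6). RNA was extracted with a Qiagen kit for fixed tissue, amplified to cDNA with the Sigma WTA2 kit and labelled chemically with KREAtech ULS dyes. The series concerns array profiling of old fixed tissue, and the input comparison asks what a larger cDNA load changes in the measured genes. The 8 arrays of an input were 1 slide, and each slide was scanned in 1 session. Input, slide and scan session therefore cannot be told apart.

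On a two-colour array each spot is read in a green channel (Cy3) and a red channel (Cy5), which here held cDNA of different mice. The extraction software subtracts a background from each spot, brings both channels to a common scale (dye normalization), and marks a spot as well above background when its signal clearly exceeds the background noise. RNA in old fixed tissue is broken into short fragments and chemically modified. Liver RNA is dominated by transcripts of hepatocytes for secreted proteins and metabolism, and transcripts of rarer cells lie closer to the background. Phenobarbital acts in hepatocytes through the constitutive androstane receptor (CAR), which raises transcription of drug-metabolizing enzymes, with Cyp2b10 as the classical target.

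The array held 55681 distinct probes under 37074 gene names, of which 20658 were RefSeq symbols, and 1 probe per name was used. No probe was saturated on any of the 16 arrays. For 1X arrays 4 and 8 the description names another Cy3 mouse than the source name. The Cy3 profile of array 4 correlated with the other array of control mouse 1, its mouse by source name, at r = 0.996 across 8580 genes, and with phenobarbital mouse 2, its mouse by description, at r = 0.974. For array 8 the values were 0.995 with the other array of phenobarbital mouse 1 and 0.980 with control mouse 2. Cyp2b10 stood at a scaled log2 signal of -4.31 on array 4 and -0.33 on array 8. The values thus went with the source names, which were used throughout. Of 10 hepatocyte markers, including Alb, Apoa1, Ttr and Cps1, all were well above background on all 16 arrays. Of 17 odorant and vomeronasal receptor genes, which liver should not express, 0 passed on all 8 arrays of an input and 15 passed on no array.

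More of the transcriptome was measurable in Cy3 at 1.5X. On average 26.1% ± 3.17 of probes (SD, n = 6 mice) were well above background with 1X input, and 39.7% ± 3.45 (SD, n = 6 mice) with 1.5X. In the control mice it went from 26.7% to 42.2% in mouse 1, from 21.9% to 40.5% in mouse 2 and from 27.4% to 42.8% in mouse 3. In the exposed mice it went from 30.8% to 36.5%, from 26.8% to 34.4% and from 23.1% to 41.8% in mice 1, 2 and 3. Every mouse was higher at 1.5X, and the values at the 2 inputs did not overlap. The mean difference was 13.6 percentage points (SD 5.59, range 5.72 to 18.7, n = 6; two-sided exact sign-flip permutation test, p = 0.03125, the smallest 6 mice can give). With the software's less strict flag for a positive and significant signal the difference was 14.9 percentage points.

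**Figure D1:**
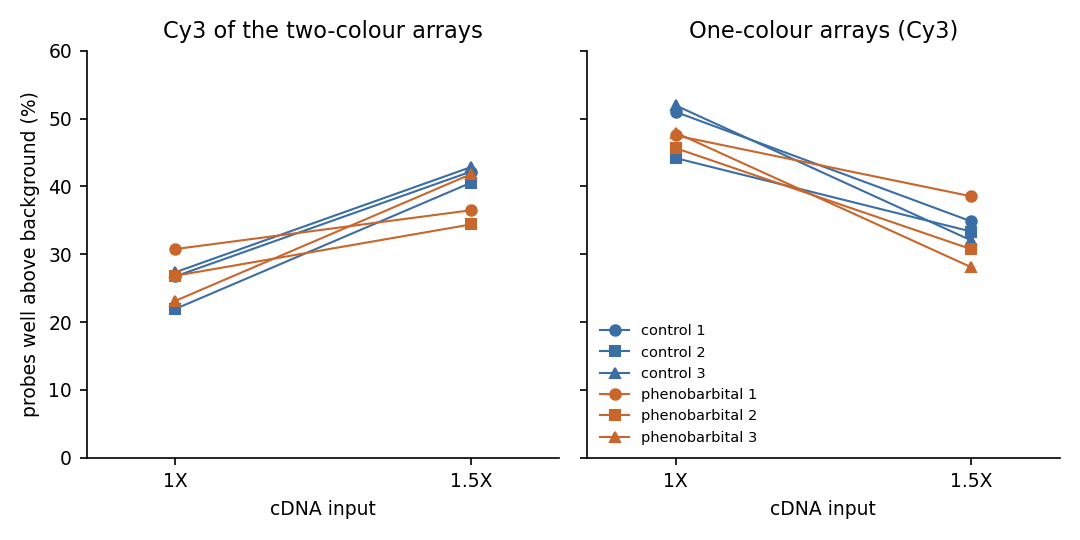
Share of probes well above background (y axis, percent) at 1X and 1.5X cDNA input (x axis) for each mouse, as lines joining the 2 inputs, in the Cy3 channel of the two-colour arrays (left) and on the one-colour arrays (right). In Cy3 of the two-colour arrays all 6 mice rose, from a mean of 26.1% to 39.7%, and on the one-colour arrays all 6 fell, from 48.0% to 32.9%.

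Other array measures moved with input, slide and session too. The median background-subtracted Cy3 signal was 4.43 to 10.7 on the 1X arrays and 15.9 to 24.0 on the 1.5X arrays. The median spot signal before any subtraction overlapped (81.5 to 120 against 89 to 120.5), as did the negative control spots (72.5 to 106.5 against 67 to 95). The local background around the spots was 23 to 30 at 1X and 36 to 41 at 1.5X. In the Cy5 channel of the same arrays the share of probes well above background went the other way, from 14.8% to 23.1% at 1X down to 2.98% to 7.43% at 1.5X. The dye normalization multiplied Cy3 by 2.50 to 5.89 at 1X and by 0.705 to 1.33 at 1.5X, and Cy5 by 5.11 to 13.1 and by 25.8 to 45.2. The part of these measures in the gene differences below was not tested, except where values from before the dye normalization are given.

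By gene name, 8752 of 37074 (23.6%) were well above background on all 8 arrays at 1X and 13247 (35.7%) at 1.5X, and 8580 on all 16. Gains far outnumbered losses: 4667 names (12.6%) were detected on all arrays at 1.5X but not on all at 1X, and 172 (0.464%) the reverse. Of these, 1144 names (3.09%) were detected on every 1.5X array and on no 1X array, while 0 names were detected on every 1X array and no 1.5X array. Of 3 classes of names, genomic intervals (probes for transcribed regions with no gene name) gained most: 20.5% were detected on all 1X arrays and 43.8% on all 1.5X arrays, against 28.9% and 38.9% of RefSeq symbols. Among symbols, 382 were detected on all arrays at 1.5X and on none at 1X.

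The abundant programs of the hepatocyte were detected in full at 1X. All 33 secreted proteins, all 78 cytosolic ribosomal proteins and all 20 genes of the urea cycle and amino acid breakdown were well above background on all 8 arrays at both inputs. Other lists gained single members: 17 of 26 CAR and PXR oxidases and reductases were detected on all arrays at 1X and 22 at 1.5X, 24 of 31 proteasome genes and then 28, and 4 of 26 genes of mitosis and replication and then 8. Markers of other cells stayed partly undetected. On all 8 arrays, 6 of 9 Kupffer cell and macrophage markers were detected at 1X and 7 at 1.5X, 5 and then 7 of 10 endothelial markers, and 0 and then 2 of 10 markers of T, B and NK cells.

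The 5 symbols with the highest signal among those detected at 1.5X alone were Fam186b, Gm16287, Ccl2, Plaat3 and Th, named by a fixed rule on signal. Ccl2 encodes a chemokine that draws monocytes, Plaat3 a phospholipase and acyltransferase of the fat cell, and Th tyrosine hydroxylase, the first enzyme of catecholamine synthesis. Where no 1X array was well above background only a lower bound can be given, the 1.5X mean against the lowest signal called well above background at 1X (or the probe's own, where higher). By that bound Fam186b was at least 12.04-fold higher at 1.5X, Gm16287 at least 7.76-fold, Ccl2 at least 7.61-fold, Plaat3 at least 6.99-fold and Th at least 6.67-fold. No test is given, since these genes were chosen for their detection at 1.5X. The bounds depend on the scaling, and over the other 4 settings run for them they lay at 2.46-fold to 8.87-fold. Ccl2 values at 1.5X were -1.16, -1.39 and -1.67 in control mice 1 to 3 and -1.08, -1.39 and -1.60 in phenobarbital mice 1 to 3 on the scaled log2 scale, so the mice lay close together. Fam186b was spread more widely, from -2.47 in control mouse 3 to 0.70 in phenobarbital mouse 3.

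Signals were then compared gene by gene. A value is the log2 processed Cy3 signal minus the array's 75th percentile over the probes well above background on all 16 arrays, averaged per mouse, and the difference 1.5X minus 1X within mice was tested with limma (Benjamini-Hochberg adjusted p under 0.05). A gene was tested when all 8 arrays of 1 input, or of both, measured it well above background. Of 13419 such genes, 9013 (67.2%) were higher and 1684 (12.5%) lower at 1.5X, with a median difference of 0.76. More of them could pass upwards by the filter alone: 4667 of these genes entered through the 1.5X arrays and 172 through the 1X arrays. Among the 8580 genes measured on all 16 arrays, 4279 (49.9%) were higher and 1682 (19.6%) lower, with a median of 0.33. On signals from before the dye normalization, a setting added after seeing the data, 1664 of them (19.4%) were higher and 3349 (39%) lower, with a median of -0.22. The direction of a typical gene depended on the scaling. Scaled to the 75th percentile over all probes, the median over the 13419 genes was -0.61, with 3151 higher and 7862 lower. Without scaling it was -0.51 (3300 and 7309), and with normexp background correction and quantile normalization -0.08 (4239 and 4866). Before dye normalization it was 0.02 (4831 and 3604). Values of single genes below are on the first scaling and are not taken relative to these medians.

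How the input difference varied with the signal level depended on the processing. The 8580 genes measured on all 16 arrays were ordered by mean signal and cut into 5 groups of 1716. From the dimmest to the brightest group the median difference was 0.73, 0.55, 0.26, -0.16 and -0.35. Calls went from 1532 higher and 0 lower in the dimmest group to 326 higher and 962 lower in the brightest. Without scaling the medians also fell, from -0.53 to -1.61. Before dye normalization they were -0.26, -0.15, -0.17, -0.27 and -0.22, and with quantile normalization -0.26, -0.22, -0.21, -0.26 and -0.19, with no such fall. Over all 13419 genes tested, cut in the same way, the medians were 2.31, 1.07, 0.69, 0.20 and -0.31. The dimmest of those groups held 1 gene of 2684 measured on all 16 arrays and the next 894 of 2684, and the others entered mostly through the 1.5X arrays. The medians of these groups were 1.20, 0.05, -0.09, -0.19 and -0.24 before dye normalization and 0.35, -0.11, -0.17, -0.22 and -0.22 with quantile normalization.

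**Figure D2:**
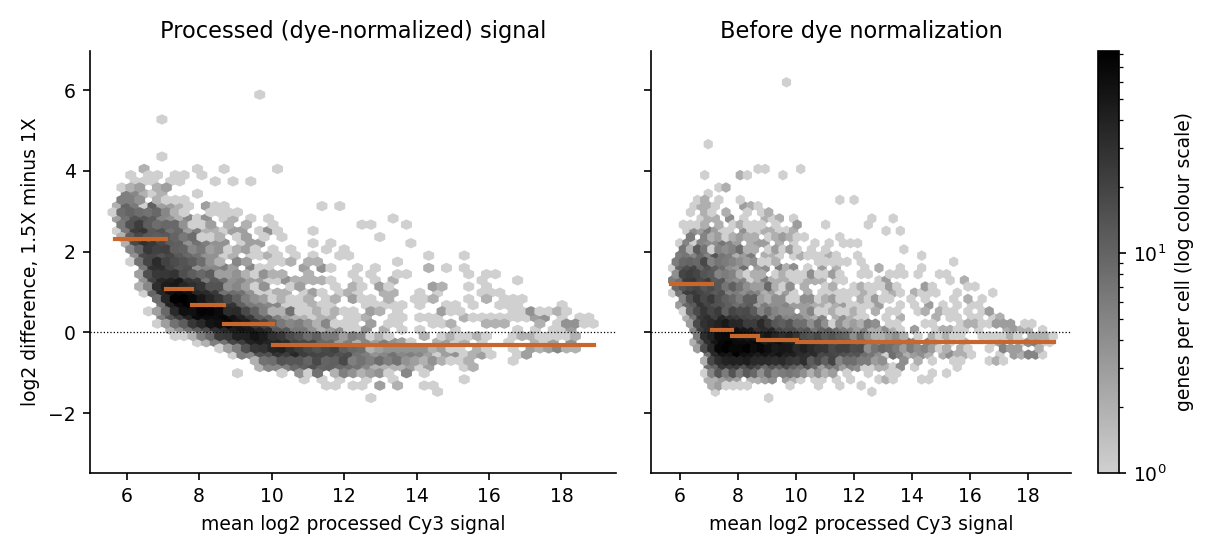
Log2 difference in Cy3 signal, 1.5X minus 1X (y axis, mean of 6 mice), against the mean log2 processed Cy3 signal over the 16 arrays (x axis) for the 8169 genes tested that have a RefSeq symbol. Darker cells hold more genes, and orange bars give the median of each of the 5 signal groups over all 13419 genes. The medians run from 2.31 to -0.31 on the dye-normalized signal (left) and from 1.20 to -0.24 before dye normalization (right).

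Differences between inputs were larger than those between mice. Across the 8580 genes measured on all arrays, the median absolute log2 difference between the 2 inputs of a mouse was 0.383 to 0.635 (r of 0.920 to 0.954). Between different mice at the same input it was 0.190 to 0.330 at 1X and 0.186 to 0.368 at 1.5X. Repeat arrays of a mouse on the same slide differed by 0.108 and 0.121 at 1X, and by 0.112 and 0.267 at 1.5X. The last pair, both control mouse 2, differed by 0.127 before dye normalization. The spread between mice within an exposure group had a median SD of 0.233 at 1X and 0.234 at 1.5X. Replicate spots of a probe within an array varied more at 1.5X (median log2 SD of 0.118 to 0.154) than at 1X (0.0846 to 0.104).

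The 10 genes with the largest increase were chosen among those measured on all 16 arrays, past the threshold and of one sign in all mice. Cdan1 encodes codanin-1, a histone chaperone regulator mutated in a congenital anaemia. Its scaled log2 signal at 1X was -2.11, -1.86 and -2.18 in control mice 1 to 3 and -1.89, -2.17 and -3.56 in phenobarbital mice 1 to 3. At 1.5X it was 1.83, 1.60, 1.33, 1.78, 1.91 and 1.89. All mice lay far higher at 1.5X and without overlap, and phenobarbital mouse 3 had the lowest 1X value and the largest difference. The log2 difference was 4.02 (SE 0.25, limma adjusted p = 6.14e-06). Cbln2, a secreted synaptic organizer, had -3.90 to -2.93 at 1X and 0.34 to 0.64 at 1.5X, a difference of 3.84 (SE 0.13, limma adjusted p = 1.50e-06). Tgm3, a transglutaminase of the epidermis, had 3.80, Map6d1, a microtubule-binding protein, 3.17, and Pitpnm2os1, a transcript opposite Pitpnm2, 3.16. Adra2b, an alpha-2 adrenergic receptor, rose by 3.00, 2610318N02Rik by 2.99, the zinc finger gene Zfp282 by 2.87, Nxnl1, a thioredoxin-like factor of the retina, by 2.86 and BC147527 by 2.83. Before dye normalization the 10 genes had values of 2.60 to 4.09.

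The 10 largest decreases, chosen in the same way, were smaller. Elovl2, which elongates polyunsaturated fatty acids, had scaled log2 signals of 2.13, 2.20 and 1.51 in control mice 1 to 3 and 1.97, 1.78 and 1.53 in phenobarbital mice 1 to 3 at 1X. At 1.5X it had 0.72, 0.66, 0.36, 0.70, 0.17 and 0.20, below every 1X value. Its difference was -1.39 (SE 0.10, limma adjusted p = 1.12e-05). Cyp3a11, a main P450 of drug metabolism, differed by -1.33 (SE 0.11) and Khk, the fructose-phosphorylating ketohexokinase, by -1.30 (SE 0.11). Other decreases were Septin12 (-1.61), a septin of sperm, Gcm1 (-1.43), a placental transcription factor, and Rhox8 (-1.36), a homeobox gene of reproductive tissues. Septin12 ranged from -2.42 in phenobarbital mouse 3 to -0.07 in control mouse 3.

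Atp5g3, a subunit of ATP synthase (-1.33), Pcx, pyruvate carboxylase (-1.31), and Apoc3, an apolipoprotein that slows triglyceride clearance (-1.26), stood apart through 1 mouse. Apoc3 differed by -0.91 to -0.64 in 5 mice and by -3.71 in phenobarbital mouse 2, Pcx by -1.02 to -0.70 and by -3.49, and Atp5g3 by -1.33 to -0.31 and by -3.05. Without that mouse the differences were -0.99 for Atp5g3, -0.87 for Pcx and -0.77 for Apoc3 (limma adjusted p of 0.00151, 0.000416 and 0.000578). Before dye normalization Pcx and Apoc3 missed the threshold with all 6 mice (limma adjusted p = 0.0653 and 0.0648). Phenobarbital mouse 2 had a single 1.5X array, array 2. The surface of each array was divided into 336 tiles of 16 rows by 12 columns, and the median deviation from the other arrays of the slide was taken per tile. On array 2, 3 adjoining tiles at rows 49 to 96 and columns 1 to 12 lay at -0.56, -0.89 and -1.02, and no tile on any other array passed 0.5 in either direction. The spots of Apoc3 (row 79, column 8) and Pcx (row 88, column 7) lie in this area. Atp5g3 (row 135, column 1) lies outside it, and the cause of its low value was not tested.

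**Figure D3:**
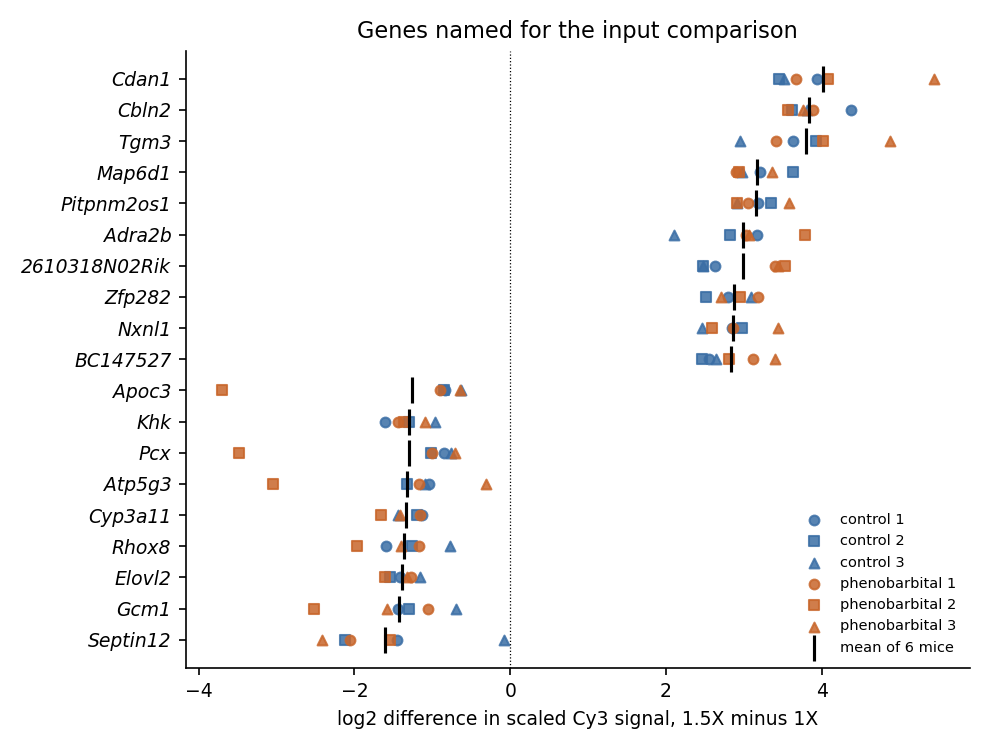
Log2 difference in scaled Cy3 signal, 1.5X minus 1X (x axis), for the 10 genes with the largest increase and 9 of those with the largest decrease (y axis), with 1 point per mouse (blue for control, orange for phenobarbital) and a black bar at the mean of 6 mice. The increases lie at 2.10 to 5.44 in every mouse, and phenobarbital mouse 2 stands apart to the left for Apoc3, Pcx and Atp5g3.

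Secreted proteins of the hepatocyte fell more often than they rose. Of the 33 genes measured on all 16 arrays, 2 were higher and 23 lower, with a median difference of -0.52, where over all 8580 genes 49.9% were higher, 19.6% lower and the median was 0.33. These genes are bright, with a median scaled log2 signal of 3.85 to 4.38 by mouse at 1X. In the brightest signal group of 1716 genes, 326 were higher and 962 lower, with a median of -0.35. The part of signal level in the fall of the list was not tested. Apoa1, the main protein of HDL, fell by 0.52 (SE 0.10), Ttr, which carries thyroid hormone, by 0.32 (SE 0.10), and Serpina3k, a protease inhibitor, by 0.87 (SE 0.13). Alb, albumin, had 0.07 (SE 0.13, adjusted p = 0.652), with 3 mice higher and 3 lower. The call of Ttr was lost without control mouse 1 (adjusted p = 0.0597, limma) or phenobarbital mouse 1 (adjusted p = 0.0504, limma), and before dye normalization Ttr had -0.19 (adjusted p = 0.223, limma) and Alb -0.17. Before dye normalization 15 of the 33 were lower and 3 higher, with a median of -0.36, where 39% of all 8580 genes were lower and the median was -0.22.

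Most lists of basic cell machinery held more decreases than increases. Over all 8580 genes 49.9% were higher and 19.6% lower (19.4% and 39% before dye normalization). In the brightest signal group, 326 of 1716 were higher and 962 lower. The part of signal level in the list counts was not tested. Of 78 cytosolic ribosomal protein genes 57 fell and 6 rose (median -0.47), and 45 fell and 5 rose before dye normalization. Rplp2, a protein of the ribosomal stalk, fell from 3.92 to 2.82 on the mean scaled log2 signal, and Rps3, a small-subunit protein, rose from 0.58 to 2.57 (difference 2.00, SE 0.13, higher in 6 of 6 mice). Oxidative phosphorylation had 30 of 55 lower and 7 higher (median -0.38), and its member Atp5o, a stalk subunit of ATP synthase, rose by 1.98 with 6 of 8 arrays well above background at 1X. Fatty acid oxidation had 17 of 25 lower and 4 higher (median -0.47). Among the members with positive differences were Echs1, enoyl-CoA hydratase, and Cpt1a, the rate-limiting carnitine transferase. Echs1, measured on 7 of 8 arrays at 1X and so not one of the 25, differed by 1.38. Its difference was 3.55 in phenobarbital mouse 3 and 0.49 to 1.38 in the other mice, and 0.26 before dye normalization (limma adjusted p = 0.434). Cpt1a differed by 0.87, with -0.24 before dye normalization and -0.39 without scaling. Housekeeping genes had 7 of 11 lower and 1 higher (median -0.45), with Actb at -0.68, Gapdh at -0.47 and Hprt at -0.62, each lower in 6 of 6 mice. The proteasome was even, with 9 of 24 higher and 9 lower (median 0.07), and -0.35 before dye normalization.

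Metabolic lists lay between these and the median of all genes. The shares over all 8580 genes, for these lists and those below, were 49.9% higher and 19.6% lower. The urea cycle and amino acid breakdown had 11 of 20 lower and 1 higher (median -0.29), with Agxt, a glyoxylate-detoxifying aminotransferase, at -0.86 and Hpd, of tyrosine breakdown, at -0.58. Bile acid synthesis and transport had 7 of 13 lower and 2 higher (median -0.28). Abcb11, the bile salt export pump, fell by 0.90 in the mean of 6 mice, and Cyp7a1, the rate-limiting enzyme of bile acid synthesis, was measured on 3 of 8 arrays at 1X and differed by 1.70. Cholesterol synthesis had 7 of 18 lower and 4 higher (median -0.13), phase II conjugation 12 of 26 and 7 (median -0.18), and transcription factors of hepatocytes 4 of 19 and 7 (median 0.07). Gsta2, which conjugates glutathione, and Nr5a2, a nuclear receptor of bile acid genes, were higher by 1.38 and 1.35, with 0.77 and 0.85 before dye normalization, though Nr5a2 was -0.018 with the 75th percentile over all probes. Hnf4a, a master regulator of hepatocyte genes, fell by 0.62 (SE 0.11). Before dye normalization or with quantile normalization the lists of cholesterol synthesis, phase II enzymes, the urea cycle, the CAR and PXR enzymes and hepatocyte markers lay at or above the median of all genes, so their place relative to other genes depends on the processing. The secreted, ribosomal, fatty acid oxidation and oxidative phosphorylation lists stayed below it before dye normalization, with medians of -0.36, -0.32, -0.43 and -0.39 against -0.22.

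The CAR and PXR enzymes moved both ways. Of 17 measured on all arrays 3 rose and 8 fell (median -0.26). Cyp3a11 and Por, the P450 reductase (-0.59, SE 0.15), fell. Cyp2c39 and Cyp3a16, P450s of the 2C and 3A families, rose by 4.00 and 3.39, with 4 and 6 of 8 arrays well above background at 1X. Cyp2b10 had 5 of 8 arrays well above background at 1X and all 8 at 1.5X. It differed by 1.12 (SE 0.34), but by 0.21 before dye normalization and by -0.14 without scaling. Since it entered the comparison through the 1.5X arrays, no test of its input difference is given. By mouse it differed by 2.37, 1.55 and 2.06 in the control mice and by 0.03, 0.05 and 0.69 in the exposed mice. The interaction test for Cyp2b10 is given with the exposure comparison.

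The major urinary proteins, pheromone carriers made in the male liver, gave the largest single value. Mup6 had scaled log2 signals of -4.43 to -3.25 over the 6 mice at 1X and 1.51 to 2.64 at 1.5X. It differed by 5.85 (SE 0.15), with 7 of 8 arrays well above background at 1X. Mup4 differed by 4.03 (SE 0.12), with 6 of 8 arrays. Both genes entered the comparison through the 1.5X arrays, where they were high, so no test is given for them. The 5 members measured on all 16 arrays had 2 higher and 3 lower and a median of -0.35. Genes of this family, like those of the Cyp2c and Cyp3a families, are near-identical copies, and probe signals of single members are uncertain.

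Many markers of other cells were not measured on every 1X array. Kupffer cell and macrophage markers had 4 of 6 higher and 0 lower (median 0.77), against 49.9% higher over all genes, but before dye normalization 1 was higher and 1 lower and the median was 0.02. Marco, a scavenger receptor of macrophages, rose by 1.81 with 2 of 8 arrays at 1X, and Adgre1, which encodes F4/80, by 0.88 (0.19 before dye normalization and -0.38 without scaling). Endothelial markers had 2 of 4 higher, a share near that of all genes (median 0.44, and -0.09 before dye normalization). Vwf, of clotting, and Pecam1, of endothelial junctions, differed by 1.48 and 1.41, with 0.34 and 0.19 before dye normalization and -0.01 and -0.06 with quantile normalization. Nkg7, of cytotoxic lymphocytes, rose by 1.71 and Cd4 by 2.09, with 7 and 2 of 8 arrays at 1X. Stellate cell and fibroblast markers had 2 of 6 lower, Col1a2, a collagen chain, among them (-0.40).

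Transcripts of the exocrine pancreas were present in every mouse at both inputs. Of 15 pancreas markers 12 were well above background on all 16 arrays, among them Ctrb1, Prss2 and Cpa1, which encode digestive proteases. Their median scaled log2 signal at 1X was 2.19, 4.25 and 4.88 in control mice 1 to 3 and 1.81, 2.59 and 4.40 in phenobarbital mice 1 to 3. At 1.5X it was 1.82, 3.78, 4.73, 1.71, 2.12 and 4.28. Control mice 2 and 3 and phenobarbital mouse 3 were the high mice at both inputs. Between mice, fewer cells of a type and less RNA per cell cannot be told apart in whole tissue. Between inputs 6 of the 12 were lower, 0 higher, and the median difference was -0.36. The part of pancreas RNA in the other results was not tested.

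The next comparison asked whether the input difference depended on the exposure. No gene passed: 0 of 13419 (0%) had a limma adjusted p under 0.05, with 0 before dye normalization as well, 1484 at an unadjusted p under 0.05, and 0.405 as the smallest adjusted p. The 5 genes with the smallest p were Glb1l, Mefv, Ikzf4, Tpbgl and Marco. Glb1l, a relative of beta-galactosidase, had input differences of 1.69, 1.76 and 1.45 in the control mice and 3.01, 3.42 and 3.24 in the exposed mice. Marco was well above background on 2 of 8 arrays at 1X, and Mefv on no 1X array. The 5 genes were chosen for their small p, and none passed over all genes tested. Cyp2b10 had an interaction of -1.73 and did not pass (limma adjusted p = 0.405). At 1X it was well above background on 1 of 4 control arrays, so its differences in the control mice are uncertain.

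Phenobarbital against control was then read in Cy3 at each input. A gene was tested when all arrays of 1 exposure at that input, or of both, measured it well above background. At 1X, 14 of 10262 genes (0.136%) passed, 13 higher and 1 lower (limma, 3 against 3 mice; 1273 at an unadjusted p under 0.05). At 1.5X, 10 of 15607 (0.0641%) passed, all higher (1428 unadjusted). Genes could enter through the exposed mice alone, as Cyp2c39 and Blm did at 1X and Cyp3a44 at 1.5X. The counts of higher genes include them, so the split by direction depends in part on the filter. Before dye normalization 20 passed at 1X and 0 at 1.5X. At 1X, leaving out a control animal (1, 2 or 3) gave 7, 4 or 15 calls, and leaving out an exposed animal (1, 2 or 3) gave 6, 5 or 6. At 1.5X, 3 genes passed with control mouse 1 left out, 0 with either control mouse 3 or phenobarbital mouse 2 left out, and 9 to 14 with each other mouse left out. A RefSeq symbol was known for 9 of the 14 and 7 of the 10, and 5 names, 4 of them symbols, passed at both inputs.

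Those 4 were drug-metabolizing enzymes: Cyp2c54 and Cyp2c55, P450s of the 2C family, and Gstm3 and Gstt3, which conjugate glutathione. Cyp2c55 had scaled log2 signals at 1X of -3.05, -2.48 and -2.55 in the control mice and 1.15, 0.72 and 0.56 in the exposed mice. At 1.5X the values were -1.88, -2.13 and -2.74 against 0.27, -0.28 and -0.05. The exposed mice lay above every control mouse at both inputs. The difference was 3.50 at 1X (SE 0.23, limma adjusted p = 0.00175) and 2.23 at 1.5X (SE 0.26, limma adjusted p = 0.00914). Gstm3 differed by 2.64 and 1.46 (adjusted p = 0.00175 and 0.0462, limma), Gstt3 by 2.49 and 1.81 (0.00175 and 0.00914) and Cyp2c54 by 2.29 and 1.80 (0.0123 and 0.00914). Between inputs Cyp2c55 itself had no common direction: it was 1.16 and 0.36 higher, then lower (-0.19) at 1.5X in control mice 1 to 3, in that order, and lower in all 3 exposed mice, with a mean of -0.19 (limma adjusted p = 0.542). The call of Cyp2c54 at 1X, and the calls of these genes at 1.5X, were lost when single mice were left out (adjusted p of up to 0.0853 at 1X and, for Gstm3, 0.208 at 1.5X). That of Gstm3 at 1.5X was lost whichever mouse was left out (limma adjusted p of 0.0741 or more).

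Other enzymes passed at 1 input. At 1X, Por differed by 1.80 (limma adjusted p = 0.0287) and by 1.22 at 1.5X (adjusted p = 0.0675). Nr1d2, a repressor of the clock, rose by 1.34, and Slc17a2, a phosphate transporter, was the 1 gene that fell, by 1.78 (limma adjusted p = 0.0287 for both). Cyp2c39 was at least 1.73-fold higher in exposed mice at 1X and Blm, a helicase of DNA repair, at least 1.26-fold. No control array measured either above background at 1X, so both entered through the exposed mice and no test is given for them. At 1.5X, Cyp2a4, a steroid hydroxylase, rose by 1.83 and Ube2c, a ubiquitin-conjugating enzyme of mitosis, by 1.64 (limma adjusted p = 0.00914 for both). At 1X, Cyp2a4 had 1.82 (limma adjusted p = 0.0562) and Ube2c 2.02. Ube2c was well above background on 1 of 4 control arrays at 1X. It entered there through the exposed mice, so no 1X test is given for it. Cyp3a44 entered at 1.5X in the same way and was at least 4.23-fold higher. The calls of Por, Nr1d2, Slc17a2 and Blm at 1X were lost whichever mouse was left out. Each of the other calls was lost without 1 or more of the single mice. The interaction of input and exposure was tested for these genes except Blm and Cyp3a44, and none passed (adjusted p of 0.405 or more, limma), which does not show that the effects were alike.

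Cyp2b10 did not pass at 1.5X. At 1X it entered through the exposed mice, so no test is given for it there. Its values at 1X were -4.48, -4.00 and -6.41 in the control mice and -0.37, -0.78 and -1.74 in the exposed mice. At 1.5X they were -2.11, -2.46 and -4.35 against -0.34, -0.74 and -1.05. The groups do not overlap at either input, with differences of 4.00 at 1X and 2.26 at 1.5X (SE 0.48, limma adjusted p = 0.176). The 1X difference rests on control values that were mostly not well above background. Of the 4 control arrays 1 was well above background at 1X and all 4 at 1.5X. Cyp3a11 differed by 1.06 (adjusted p = 0.0650) and 0.90 (adjusted p = 0.276), without passing.

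**Figure D4:**
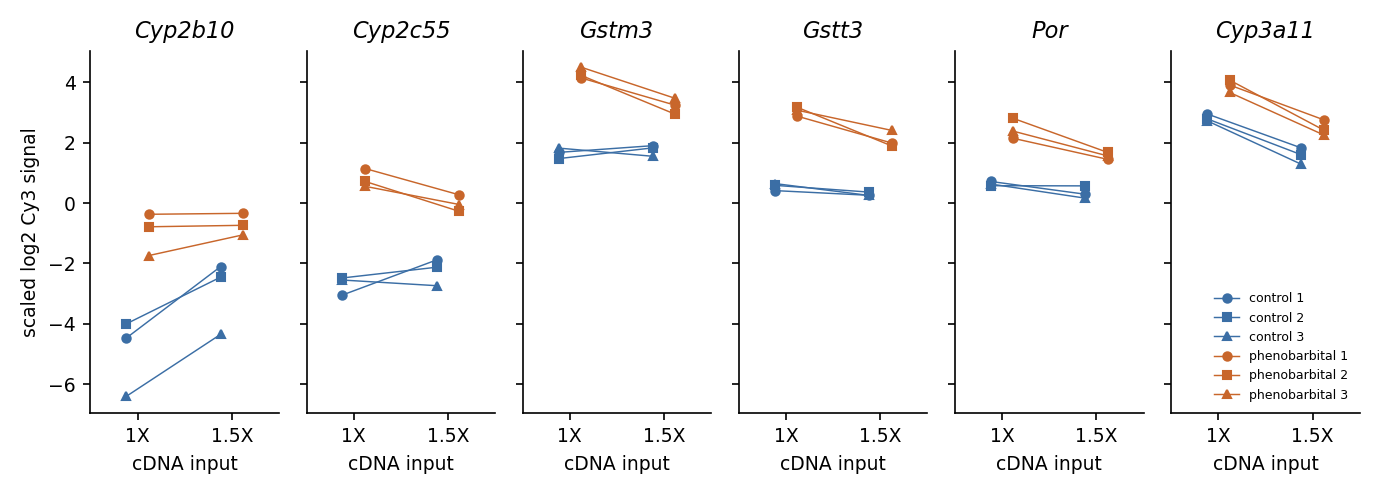
Scaled log2 Cy3 signal (y axis) at 1X and 1.5X (x axis) of 6 drug-metabolism genes, with 1 line per mouse (blue for control, orange for phenobarbital). The exposed mice lie above the control mice at both inputs in all 6 genes, and for Cyp2b10 the control values lie higher at 1.5X than at 1X.

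A wider set of exposure genes came from other arrays. On the one-colour arrays of the same mice, averaged over both inputs, 95 of 12799 genes (0.742%) passed phenobarbital against control (limma). Of these, 52 were well above background on all 16 two-colour arrays, and all 52 had the same direction in Cy3 at both inputs. Because the mice were the same, the shared direction is no independent test of the exposure. Their median phenobarbital difference in Cy3 was 1.22 at 1X and 0.88 at 1.5X. It was smaller at 1.5X in 48 of the 52, in 41 before dye normalization (medians of 1.22 and 0.92) and in 40 with quantile normalization (1.03 and 0.72). Genes are not independent replicates, and the share over all genes was not taken, so these counts are descriptive only. The test of the input difference between exposures found 0 of 13419 genes.

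The one-colour arrays also carried Cy3 at both inputs, 1 array per mouse and input, but their scan sessions were reversed: session 1 held one-colour 1X and two-colour 1.5X, session 2 the other sets. On the one-colour arrays the share of probes well above background fell from 48.0% ± 3.00 (SD, n = 6) at 1X to 32.9% ± 3.59 (SD, n = 6) at 1.5X. It fell in 6 of 6 mice, by a mean of 15.1 percentage points (SD 4.53; exact sign-flip permutation p = 0.03125). The input difference of the 2 formats differed by 28.7 percentage points (SD 8.78, range 14.7 to 38.5 over the 6 mice; exact sign-flip permutation p = 0.03125).

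The gene differences also ran in opposite directions. The input difference in Cy3 of the two-colour arrays differed from that on the one-colour arrays in 9415 of 13377 genes (70.4%, limma), 6986 higher and 2429 lower. Genes could enter through the input where they were high, and the split depended on filter and scaling. Among genes measured on all arrays of both formats 2931 were higher and 2496 lower. With quantile normalization the counts were 4529 and 5267, and with the 75th percentile over all probes 3684 and 7639. Across all 13377 genes, which are not independent replicates, the 2 input differences correlated at r = -0.83 (rho = -0.78), and at -0.92 before dye normalization. Over the 8542 genes well above background on all arrays of both formats r was -0.71 (rho = -0.58). Mouse by mouse r was -0.80 to -0.76. All 10 of the largest increases and all 10 of the largest decreases in Cy3 had the opposite sign on the one-colour arrays. Those genes were chosen for their large changes, and their signs were not taken relative to the median. Relative to the median difference, 10887 of all 13377 genes (81.4%) had opposite signs. Among the 8542 genes measured on all arrays of both formats, 5868 (68.7%) did. Mup6, not well above background on all arrays of both formats, was 5.45 to 6.33 higher at 1.5X in the 6 mice on the two-colour arrays and differed by -6.22 to -5.76 on the one-colour arrays. Among genes measured on all arrays of both formats, Cdan1 had 4.02 and -4.28, Cbln2 3.84 and -4.38, and Tgm3 3.80 and -3.70. On the falling side Elovl2 had -1.39 and 1.56, Cyp3a11 -1.33 and 1.49, Septin12 -1.61 and 1.60, and Entpd8, an ectonucleotidase of bile canaliculi, -1.11 and 1.63. The high set for the first group of genes was thus the one scanned in session 1 in both formats, at 1X in one and at 1.5X in the other.

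**Figure D5:**
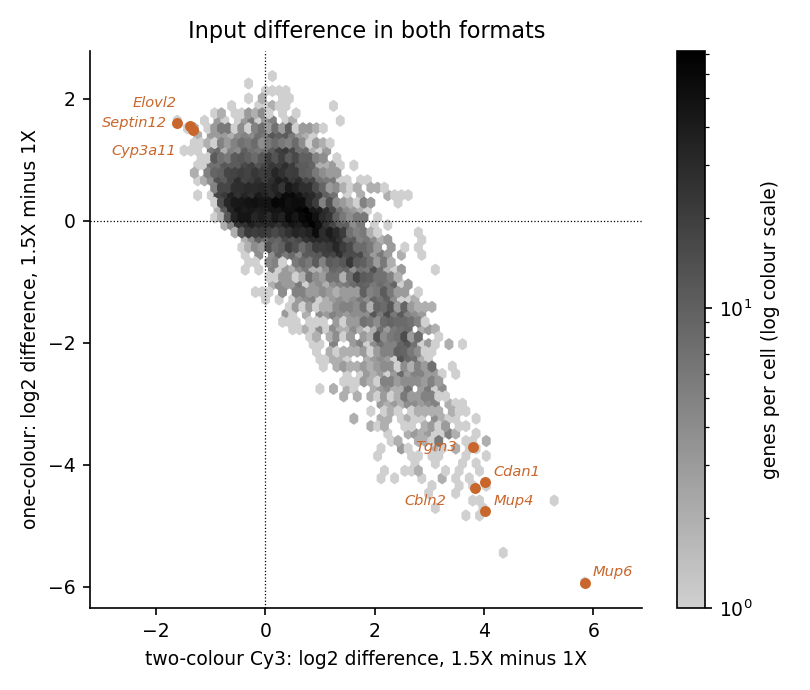
Log2 input difference, 1.5X minus 1X, in Cy3 of the two-colour arrays (x axis) against the one-colour arrays (y axis), as means of 6 mice, for those of the 13377 genes that have a RefSeq symbol, with darker cells holding more genes and 8 named genes in orange. Genes higher at 1.5X on the two-colour arrays lie low on the one-colour arrays (r = -0.83 over all 13377 genes), with Mup6 at 5.85 and -5.93.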

How the data were processed

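Per the file headers, the authors read the scans with Feature Extraction 11.0.1.1 from Agilent. For every spot the deposited scanner output gives a processed Cy3 intensity, which is background-subtracted and, for the two-colour sets, dye-normalized. It also gives raw spot and local background intensities and 0 or 1 flags. Each array had 62976 spots, 3671 of them controls, which were left out. Processed Cy3 signals were used. Replicate spots were averaged on the log2 scale, each array was scaled by the 75th percentile of the probes measured above background throughout, and arrays of a mouse were averaged. Names came from RefSeq accessions (27235 of 55681 probes), and the probe with the highest mean Cy3 signal stood for a name. Arrays have no count depth, and their number limits the precision.

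limma 3.58.1 under R 4.3.3 tested the values (threshold 0.05 after Benjamini-Hochberg adjustment), and exact sign-flip permutation tested the shares. Mice are separate animals per the labels, and within-mouse differences make the input comparison paired by animal. A bound ("at least") sets the bright group's mean against the lowest signal well above background, or the probe's own where higher. Alternatives were other scalings, normexp with quantile normalization, other detection filters, the description's mice, leaving out each mouse, and, added after seeing the data, signals before dye normalization and scaling by the median of the genes tested. On simulated data, 96.5% of 4-fold and 73% of 2-fold changes were found between inputs, 69% and 0% between exposures, 78.5% and 12.5% between formats, 87.5% and 40% for phenobarbital at 1X, and 88.5% and 22.5% at 1.5X. Named genes were, in each direction, the 10 symbols of largest change past the threshold, measured on all 16 arrays and of one sign in all 6 mice; the 5 brightest detected at 1 input; the 5 largest per direction between formats and the 5 smallest p between exposures; a panel; and, from each list, the 2 members that changed most. For phenobarbital, the symbols that passed and the panel were named. A gene that the rule names is not reported here. The members and lists were chosen with earlier results of these data known. Figures used matplotlib 3.10.9 in Python 3.11.15.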

Additional observations from a re-analysis of the deposited data

Results flagged for a closer look

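Of 37 values tested for a mouse far from the others, 4 stood out. All 4 were in genes chosen for a large mean change, which a single far mouse can enlarge. The count is therefore not set against chance. The Cdan1 input difference was 5.44 in phenobarbital mouse 3 and 3.46 to 4.08 in the other mice. Phenobarbital mouse 2 stood apart for Atp5g3 (-3.05, others -1.33 to -0.31), Pcx (-3.49, others -1.02 to -0.70) and Apoc3 (-3.71, others -0.91 to -0.64), and the spots of Pcx and Apoc3 lie in the low area of its only 1.5X array. The input difference itself differed between formats, by 28.7 percentage points in the share of probes well above background (exact sign-flip permutation p = 0.03125, same direction in 6 of 6 mice) and in 9415 genes (limma). The inputs were scanned in opposite sessions on the one-colour and two-colour arrays. This difference between formats therefore cannot be told apart from differences between slides or scan sessions.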

How the results depend on the processing

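The gain in detected probes was 12.6 to 15.1 percentage points with a mouse left out (exact permutation p = 0.0625, the smallest 5 mice allow), and p was 0.00216 with no replicate block. The count of 10697 genes past the threshold was 33041 with no filter, 10033 to 11083 with a mouse left out and 10071 with no replicate block for the mouse. It was 6222 when only the 8580 genes measured on all 16 arrays were fitted and adjusted, against 5961 of these genes in the main fit. Genes whose input difference depended on exposure numbered 0 to 1 with a mouse left out (1 without phenobarbital mouse 1). Those differing between formats numbered 5427 when measured on all arrays of both formats, and 8748 to 9476 with a mouse left out. Phenobarbital calls at 1X were 0 with the mice named in the descriptions, 104 with normexp and quantile, and 4 to 15 with a mouse left out. At 1.5X they were 0 before dye normalization and 0 to 14 with a mouse left out. With the mouse number as a replicate block they were 5 and 9. The numbers only name mice: deviations of same-numbered mice correlated at 0.11, -0.09 and 0.23 at 1X and 0.38, -0.01 and 0.47 at 1.5X, and 1 and 2 of the 3 numbers matched best with their own. Names detected at 1.5X alone numbered 1172 to 1722 with a mouse left out (1722 without phenobarbital mouse 1) and 3284 under a looser rule (at least 6 arrays against at most 2), which gave 2 names for 1X alone.

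Of 2261 values of single genes over the alternatives, 2034 kept their direction and side of the threshold or moved little, 154 lost the threshold, 15 gained it and 21 without a call moved, some of them across 0. The other 37 were called values that changed sign. With the 75th percentile over all probes these were Nr5a2 (-0.018), Nnmt (-0.091), Psmd14 (-0.11), Mcm2 (-0.20), Cyp2b10 (-0.24), Hsd17b7 (-0.39), Ccnb1 (-0.43), Adgre1 (-0.48), Cpt1a (-0.50), Hbb-bt (-0.57) and Des (-0.66). Without scaling they were Psmd14 (-0.0072), Mcm2 (-0.093), Cyp2b10 (-0.14), Hsd17b7 (-0.29), Ccnb1 (-0.32), Adgre1 (-0.38), Cpt1a (-0.39), Hbb-bt (-0.47) and Des (-0.56). With normexp and quantile they were Vwf (-0.014), Adgre1 (-0.015), Cyp2b10 (-0.017), Tfrc (-0.0201), Pecam1 (-0.056), Hsd17b7 (-0.099), Mcm2 (-0.10), Psmd14 (-0.12), Ccnb1 (-0.14), Cpt1a (-0.26) and Des (-0.36). Before dye normalization they were Hsd17b7 (-0.024), Mcm2 (-0.053), Cpt1a (-0.24) and Des (-0.50), and with the median over the genes tested, also added after seeing the data, Hbb-bt (-0.068) and Des (-0.16). List medians relative to all genes turned positive with normexp and quantile for cholesterol synthesis (0.016), major urinary proteins (0.016), hepatocyte markers (0.027), the urea cycle (0.068), phase II (0.085), stellate cells (0.097) and CAR and PXR enzymes (0.11). Before dye normalization they did for cholesterol synthesis (0.0198), hepatocyte markers (0.042), the urea cycle (0.043), stellate cells (0.047), CAR and PXR enzymes (0.076) and phase II (0.081). The cause was not tested.

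Each input was 1 slide with 1 or 2 arrays per mouse, and 6 mice limit the precision. Genes not well above background on every 1X array have the least certain differences.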

Other observations

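Endocrine pancreas transcripts were measured on few 1X arrays. Gcg, which encodes glucagon, was well above background on 1 of 8 arrays at 1X and on all 8 at 1.5X. Ins2, which encodes insulin, was detected on 5 and then 8 arrays. Of 7 red cell markers 5 were measured on all 16 arrays, 2 of them higher and 0 lower, where 49.9% of all genes were higher. The anion exchanger Slc4a1 was well above background on 2 of 8 arrays at 1X and on all 8 at 1.5X. In the proteasome, Psmd8 and Psmd14, each on 4 of 8 arrays at 1X, differed by 2.21 and 1.25, and by 1.21 and 0.04 before dye normalization.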
